A study of Mus musculus with 10 samples.

Results

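Regional identity along the gut is set by a small group of transcription factors. This account covers 8 of them in mouse duodenal organoids: the homeobox genes Cdx1, Cdx2, Pdx1 and Onecut2, the zinc-finger genes Gata4 and Gata6, and the nuclear receptor genes Hnf4a and Hnf4g. They were chosen by name. All 8 of 8 were found among the 24016 gene symbols of the deposited transcription table, each with 1 transcript.

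The organoids were grown from duodenum in Matrigel, a gel of basement membrane proteins. In WENRC medium the factors were EGF, Noggin and R-spondin together with Wnt3A and the GSK3 inhibitor CHIR-99021, both of which activate Wnt signalling, and the labels call these cells intestinal stem cells. ENRI medium lacked the last pair and held IWP-2, which blocks Wnt secretion. The labels call these cells enterocytes, the absorptive cells of the villus. EGF, Noggin and R-spondin were common to both media. Genotype, strain, sex, age and the time in each medium are not given in the sources used here. Nascent transcription was measured by GRO-seq, which sequences RNA extended by engaged polymerases in isolated nuclei, in 2 libraries per medium. The sample titles number the mice 1 and 2 in both media, and the table's header places 1 library of each medium in batch 1 and the other in batch 2. For H3K27me3, the histone mark laid down by Polycomb repressive complex 2, each medium had a single ChIP-seq library (1 per medium), so nothing said of this mark has a replicate check.

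CDX2 and its paralogue CDX1 specify intestine against stomach and are active from duodenum to colon. PDX1 is a factor of the duodenum and pancreas, ONECUT2 is found in proximal small bowel, and GATA4 marks duodenum and jejunum but not distal ileum, whereas GATA6 is present along the whole gut. HNF4A and HNF4G bind the same DNA sequence and act together on genes of the absorptive brush border and of fat transport. Genes for factors of other organs are commonly covered by H3K27me3 in the gut epithelium.

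The ParaHox cluster, which holds Gsx1, Pdx1 and Cdx2 side by side on chromosome 5, is shown first, because H3K27me3 lay over only the neighbour of the pair described here. In build mm9, the build of the deposited tables, the start of Gsx1, a homeobox gene of the developing brain, lay 118.553 kb from that of Cdx2, and the start of Pdx1 lay 37.118 kb from it. The 250 bases before each start, from RefSeq in build GRCm38.p6 and read 5′ to 3′ on the strand of the gene, follow with every CpG dinucleotide in capitals. They came from chr5:147188446-147188695 (plus strand) for Gsx1, chr5:147269847-147270096 (plus strand) for Pdx1 and chr5:147307250-147307499 (minus strand) for Cdx2.
Gsx1: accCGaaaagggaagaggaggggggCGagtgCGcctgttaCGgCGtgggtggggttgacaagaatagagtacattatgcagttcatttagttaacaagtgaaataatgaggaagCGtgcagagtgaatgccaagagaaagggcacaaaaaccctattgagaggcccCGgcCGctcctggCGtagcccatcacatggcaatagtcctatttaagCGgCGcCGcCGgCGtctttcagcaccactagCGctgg
Pdx1: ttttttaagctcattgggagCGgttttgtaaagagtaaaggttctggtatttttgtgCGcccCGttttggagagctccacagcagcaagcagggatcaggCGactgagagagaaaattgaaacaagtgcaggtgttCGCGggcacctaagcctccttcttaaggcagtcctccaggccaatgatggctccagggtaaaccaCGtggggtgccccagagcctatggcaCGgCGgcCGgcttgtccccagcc
Cdx2: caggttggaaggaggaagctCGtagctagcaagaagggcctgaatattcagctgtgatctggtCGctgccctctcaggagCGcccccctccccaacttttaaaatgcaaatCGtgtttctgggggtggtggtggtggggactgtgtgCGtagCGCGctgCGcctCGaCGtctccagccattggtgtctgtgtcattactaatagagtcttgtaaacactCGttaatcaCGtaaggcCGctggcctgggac

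These windows held 15, 10 and 13 CpG, against a median of 6 over 32851 RefSeq promoter windows of the same length, so all 3 were above the median in CpG content. A search of both strands for short motifs found a single match, GTTAAT of HNF1 in the Cdx2 window. This motif occurs in 6.43% of all windows. The GATA-type motif AGATAA, found in 9.99% of all windows, had no match in the 3 windows. Neither did the homeobox motif TTTATNG that CDX proteins bind (9.81% of all windows). The Wnt effector motif CTTTGAT (3.21%) and the HNF4 motif CAAAGTCCA (0.384%) were also without a match. A match is a string of letters and not a bound site. Of the 8 factors, 3 (Cdx2, Pdx1 and Hnf4a) matched an entry in the RefSeq promoter table. Hnf4a had 2 windows there, not printed, with 3 and 4 CpG, below the median. The first held 1 match to AGATAA and the second 2 matches to GTTAAT.

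Gsx1 was close to silent, and a broad H3K27me3 region covered its start in both media. It had 0 reads in 3 libraries and 3 reads in the ENRI library of batch 2. In the shallowest library 0 reads allows up to 0.144 RPKM, the level of 3 reads. RPKM is reads per kb of gene body, scaled to the library's sum over all transcripts. The region over its start was 21.41 kb long in WENRC and 24.107 kb in ENRI, 5.57-fold and 4.88-fold over input by the authors' values. Pdx1 and Cdx2 had no region within 2 kb of their starts in either medium, and both were transcribed in every library.

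The gene bodies of the 8 factors held 146 to 13719 reads per library, and their levels ran from 0.995 to 10.1 RPKM. All 8 passed the filter on low values, 0.5 RPKM in at least 2 libraries. Summed over all transcripts, the recovered reads were 25839486 and 9245915 in WENRC and 29128099 and 15787828 in ENRI, in batches 1 and 2. In this sum a read in overlapping transcripts can count more than once. With 1 transcript per gene the sums were 16302294 and 5868922 in WENRC and 18368186 and 10245627 in ENRI. The tested difference is log2(RPKM + 0.5) in ENRI minus WENRC, with limma's test and Benjamini-Hochberg adjustment over 11602 genes. On this scale all tested genes had a median of −0.21, since 65.7% of them were lower in ENRI. A zero change therefore stood above the middle gene. This median was −0.042 under quantile normalization and −0.0030 in DESeq2. A bulk measurement cannot tell fewer cells of a type from less RNA per cell.

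Markers of the labelled cell types did not overlap between the media. Lgr5, the receptor that marks crypt stem cells, was at 1.96 and 2.86 RPKM in WENRC and 0.194 and 0.142 in ENRI. Alpi, the brush border alkaline phosphatase, was at 11.9 and 3.06 RPKM in WENRC and 46.1 and 51.2 in ENRI. Neither gene passed at an adjusted p of 0.05 (limma adjusted p = 0.0541 for Lgr5 and 0.0654 for Alpi). All 11 epithelial markers passed the filter, and their summed level was 154 to 162 RPKM in WENRC and 242 to 277 in ENRI. Of the markers of other cells, 1 of 13 mesenchymal, 1 of 8 immune, 0 of 6 endothelial and 1 of 7 neuronal and glial genes passed. The summed mesenchymal level was 1.52 to 1.96 RPKM in WENRC and 1.21 to 1.59 in ENRI, the endothelial 0.0468 to 0.125 and 0.102 to 0.155, and the neuronal and glial 1.28 to 1.30 and 1.21 to 1.67. The immune sum was 13.9 to 17.7 RPKM in WENRC and 5.86 to 5.93 in ENRI. Nearly all of it was Cd68, a lysosomal glycoprotein of macrophages, at 14.8 ± 2.39 RPKM in WENRC and 5.36 ± 0.159 in ENRI (SD, n = 2 each). The other immune genes stayed below the filter. Among them, Csf1r had means of 0.470 and 0.360 RPKM in WENRC and ENRI, Lyz2 0.114 and 0.0650, and Itgam 0.0407 and 0.0311. None of these markers had 0 reads in all 4 libraries, and their part in the results below was not tested.

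None of the 8 factors passed the test at an adjusted p of 0.05, where limma called 0.147% of all tested genes (17, and 0 with the batch number as a block). With an unadjusted p under 0.05 there was 1 of 8, Hnf4g, beside 39% of all tested genes. The count test in edgeR called 1 of 8, again Hnf4g, where it called 8.44% of genes, and DESeq2 called the same gene where it called 23.6%. Between the media, the 4 values did not overlap for 4 of 8 factors, beside 72.7% of all tested genes. Cdx2 and Hnf4a were lower in ENRI in both batches, and Onecut2 and Hnf4g were higher in both. Over all tested genes, 49.7% were lower and 23% were higher without overlap.

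**Figure D1:**
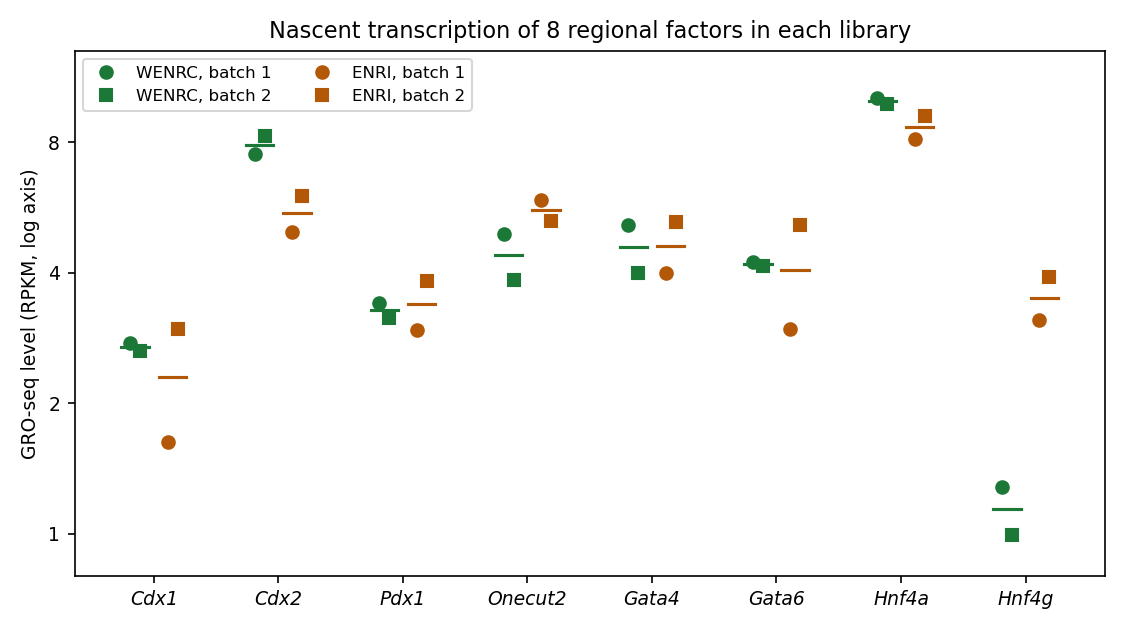
Nascent transcription of the 8 factors in each GRO-seq library, in RPKM on a log axis; circles are batch 1, squares are batch 2, and the short lines are means of 2 libraries. Hnf4g stands at 0.995 to 1.28 RPKM in WENRC and 3.10 to 3.90 in ENRI, while the points of Cdx1, Pdx1, Gata4 and Gata6 overlap between the media.

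Hnf4g, the paralogue of Hnf4a, had the largest difference of the 8. Its level was 1.28 and 0.995 RPKM in WENRC and 3.10 and 3.90 RPKM in ENRI, in batches 1 and 2 respectively. Both ENRI libraries were above both WENRC libraries. The means were 1.14 ± 0.202 and 3.50 ± 0.563 RPKM (SD, n = 2 each), a ratio of 3.08. From the reads, the ratio was 2.42 within batch 1 (exact 95% interval 2.35 to 2.50, counting error only) and 3.92 within batch 2 (3.70 to 4.15).

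The fitted log2 change of Hnf4g was 1.29 ± 0.18 (SE), with a limma adjusted p of 0.0560, just above the threshold. With the batch number as a block the adjusted p was 0.0862. In edgeR's quasi-likelihood test it was 0.0424, with the block 0.0460, and in DESeq2 2.97e-08. Over 15 alternative settings the change ran from 1.07 to 1.91, never below 0, and 6 of the 15 called it. Beside the 3 count tests these were a filter of 10 reads, quantile normalization and the fit without the ENRI library of batch 1, which called 8.9%, 8.01% and 49.9% of genes. edgeR with the block called 8.03%. Its change was above that of 96.3% of tested genes. In the authors' deposited table, Hnf4g had a log2 fold change of 1.87 and an FDR of 0.00176, where 8.71% of genes had an FDR under 0.05.

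Hnf4g spans 151770 bp on chromosome 3 (3508030 to 3659800, plus strand, transcript NM_013920), and before scaling it held 5021 and 1396 reads in WENRC and 13719 and 9342 in ENRI. These read numbers also carry the different depth of the libraries. Its level exceeded that of 68.6% of all genes in WENRC and 91.7% in ENRI.

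Hnf4a, which is expressed in liver, kidney, pancreas and gut, was the highest of the 8 in both media. It was at 10.1 and 9.77 RPKM in WENRC and at 8.13 and 9.18 RPKM in ENRI. The ENRI libraries were both below the WENRC libraries, by a narrow margin in batch 2. Its log2 change of −0.19 ± 0.22 (SE; limma adjusted p = 0.538) was close to the median of all genes. The sign turned in edgeR (0.050) and DESeq2 (0.082).

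Set against Hnf4a in the same library, Hnf4g stood at 0.127 and 0.102 in WENRC and at 0.382 and 0.425 in ENRI. The 2 receptors were thus nearer in level in ENRI, though Hnf4a remained above Hnf4g in each library. On the log2 scale the ratio differed by 1.83 between the media, from −3.14 ± 0.22 in WENRC to −1.31 ± 0.11 in ENRI (SD, n = 2 each). An exact two-sided permutation test gave p = 0.333, the smallest that 2 against 2 libraries allow.

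Cdx2, the master regulator of intestinal identity, was transcribed at 7.52 and 8.26 RPKM in WENRC and 4.96 and 6.02 RPKM in ENRI. All ENRI values lay below all WENRC values. The log2 change was −0.49 ± 0.21 (SE), which did not pass (limma adjusted p = 0.162), and it was −0.55 in batch 1 and −0.43 in batch 2. Relative to the median gene it was −0.28. Its sign was negative under all 15 alternatives, from −0.62 to −0.24, and none called it. The gene lies on chromosome 5 at 148112476 to 148118825, minus strand (NM_007673).

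Cdx1, which responds to Wnt signalling and retinoic acid, was at 2.75 and 2.63 RPKM in WENRC and at 1.63 and 2.97 RPKM in ENRI. The ENRI library of batch 1 was the lowest of the 4 and that of batch 2 the highest. Within batch 1 the log2 change was −0.61, within batch 2 it was 0.15, and the fit gave −0.23 ± 0.28 (SE; limma adjusted p = 0.561). Without the ENRI library of batch 1 it was 0.12, and in edgeR and DESeq2 it was 0.029 and 0.067. Cdx1 lies on chromosome 18 at 61178516 to 61195853, minus strand (NM_009880). The Cdx1 to Cdx2 ratio was 0.366 and 0.319 in WENRC and 0.328 and 0.494 in ENRI, so the media overlapped.

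Pdx1, the homeobox gene shared by duodenum and pancreas, was at 3.40 and 3.15 RPKM in WENRC and 2.95 and 3.82 RPKM in ENRI. The ENRI values enclosed the WENRC values. The fitted log2 change was 0.034 ± 0.19 (SE; limma adjusted p = 0.908), from −0.18 in batch 1 to 0.25 in batch 2, and it turned negative without either library of batch 2 (−0.015 and −0.13). Pdx1 lies on chromosome 5 at 148081707 to 148086725, plus strand (NM_008814). The antisense transcript 2210019I11Rik overlaps its first 1390 bases. The strand setting of the counting is not stated, so reads of the pair cannot be told apart there.

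Pdx1 relative to its neighbour Cdx2 stood at 0.453 and 0.381 in WENRC and 0.595 and 0.636 in ENRI. This ratio was higher in both ENRI libraries and did not overlap between the media. It was examined after the levels were known.

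Onecut2, a cut-homeobox gene of proximal bowel and liver, was at 4.92 and 3.85 RPKM in WENRC and 5.88 and 5.28 RPKM in ENRI. Both ENRI libraries were higher. The log2 change was 0.32 ± 0.21 (SE), which did not pass (limma adjusted p = 0.299), with 0.24 in batch 1 and 0.41 in batch 2. Relative to the median gene it was 0.53, and over the 15 alternatives it stayed between 0.16 and 0.62. Onecut2 lies on chromosome 18 at 64500018 to 64558142, plus strand (NM_194268). By mean level it stood below Hnf4a, Cdx2 and Gata4 in WENRC, and in ENRI it was next to Hnf4a.

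Gata4, the GATA gene of the proximal small bowel, was at 5.15 and 4.00 RPKM in WENRC and at 4.00 and 5.22 RPKM in ENRI. The values swapped places between batches. The fit gave 0.0090 ± 0.23 (SE; limma adjusted p = 0.981), made of −0.33 in batch 1 and 0.35 in batch 2. The sign also turned under quantile normalization (−0.024) and without either library of batch 2 (−0.16 each). Gata4 lies on chromosome 14 at 63817752 to 63864097, minus strand (NM_008092).

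Gata6, the GATA factor found along the whole gut, was at 4.23 and 4.15 RPKM in WENRC and 2.97 and 5.15 RPKM in ENRI. The WENRC pair lay between the ENRI values. The fit gave −0.082 ± 0.29 (SE; limma adjusted p = 0.849), from −0.45 in batch 1 to 0.28 in batch 2. The sign turned in edgeR (0.21), DESeq2 (0.25) and median centring (0.065), and without the ENRI library of batch 1 (0.27). Gata6 lies on chromosome 18 at 11052508 to 11085633, plus strand (NM_010258), and the antisense 1010001N08Rik overlaps its first 57 bases. Gata6 relative to Gata4 stood at 0.821 and 1.04 in WENRC and 0.743 and 0.985 in ENRI, so both GATA genes were at similar levels per length in each library.

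**Figure D2:**
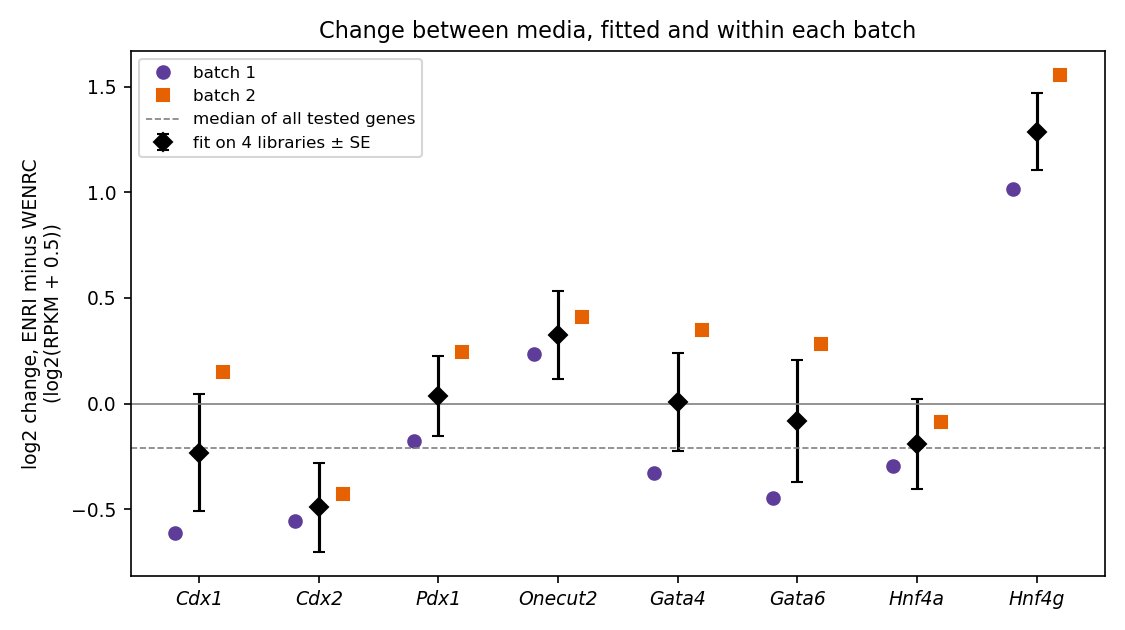
Log2 change of each factor, ENRI minus WENRC on the log2(RPKM + 0.5) scale; diamonds are the fit on 4 libraries with its SE, circles batch 1 and squares batch 2, and the dashed line is the median of all tested genes at −0.21. Cdx1, Pdx1, Gata4 and Gata6 lie below 0 in batch 1 and above 0 in batch 2, and Hnf4g lies at 1.02 and 1.56.

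The change had opposite signs in the batches for 4 of 8 factors (Cdx1, Pdx1, Gata4 and Gata6), beside 20.5% of all tested genes. In each of these the negative value was in batch 1. For all 8 the batch 2 value was the higher, but the share of all tested genes with this order was not computed. Whether it is particular to these factors is therefore not known. Over all tested genes the median change was −0.16 in batch 1 and −0.24 in batch 2. The 2 libraries of a medium correlated across genes at r = 0.949 in WENRC and 0.874 in ENRI (genes are not independent replicates). The median fitted change of the 8 was −0.037.

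The order of levels per length differed in how well it was separated. In WENRC it ran Hnf4a, Cdx2, Gata4, Onecut2, Gata6, Pdx1, Cdx1, Hnf4g, where the ranges of Gata4, Onecut2 and Gata6 overlapped their neighbours and the other steps did not overlap. In ENRI it ran Hnf4a, Onecut2, Cdx2, Gata4, Gata6, Hnf4g, Pdx1, Cdx1, where Hnf4a was separate and the ranges of all other neighbours overlapped. Hnf4g was thus last in WENRC and no longer separated from Pdx1 and Gata6 in ENRI.

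Genes with the most similar pattern over the 4 libraries were named by the distance between centred log2 values, among 10126 genes. For Hnf4g they were Ackr4, an atypical chemokine receptor (distance 0.060), Creb3l2, a membrane-bound transcription factor of the secretory pathway (0.083), and Themis3 (0.098). For Cdx2 they were Nudc, Siah2 and Prss53, and for Hnf4a Rnf141, Zfp513 and Fastkd1. Gata6 was nearest to the stress factor gene Atf4, then Nagk and Sharpin. Gata4 was nearest to Echs1, Pdx1 to Suclg1, Gpatch1 and Ndufv3, Onecut2 to Ykt6, Kdelr1 and Arpc3, and Cdx1 to Xylb, Acy1 and Fam195a. With 4 libraries many genes share any given pattern.

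No H3K27me3 region lay within 2 kb of the start of any of the 8 factors. This held in the broad lists of both media, where 10.5% (WENRC) and 8.76% (ENRI) of all genes had such a region, and in the narrow lists, where 17.8% and 19.6% did. No region of any list overlapped a gene body of the 8. Among genes above the filter on low values, 4.37% had a broad region in WENRC or ENRI, so a count of 0 among 8 transcribed genes is near that background.

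The nearest broad region to a factor lay upstream of Cdx1, 7.376 kb away in WENRC and 7.603 kb in ENRI. It covered the start of Pdgfrb, a receptor gene of mesenchymal cells that lies head to head with Cdx1, and Pdgfrb was at 0.125 to 0.314 RPKM. In WENRC the narrow list also held a region of 928 bp, 5.102 kb upstream of Cdx1. Cdx2 had a broad region of 1000 bp in WENRC, 14.068 kb upstream, next to the start of Urad, a gene of urate breakdown. The ENRI broad list had none there, although its narrow list held a region of 664 bp at 13.716 kb.

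The nearest broad region to Cdx2 in ENRI was 80.7 kb away, on the far side of Pdx1. For the other 6 factors the distance in WENRC and ENRI was 51.2 and 43.6 kb for Pdx1, 72.6 and 74.0 kb for Onecut2, and 134 and 120 kb for Gata4. It was 186 and 206 kb for Gata6, 223 and 229 kb for Hnf4a, and 1701 and 1702 kb for Hnf4g. Among the factors, Hnf4g was thus the farthest from any broad region in both media. The narrow lists held regions nearer to it, 123 kb away in WENRC and 529 kb in ENRI. These were also the longest distances of any factor in the narrow lists. A link between this distance and the change in transcription was not tested.

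**Figure D3:**
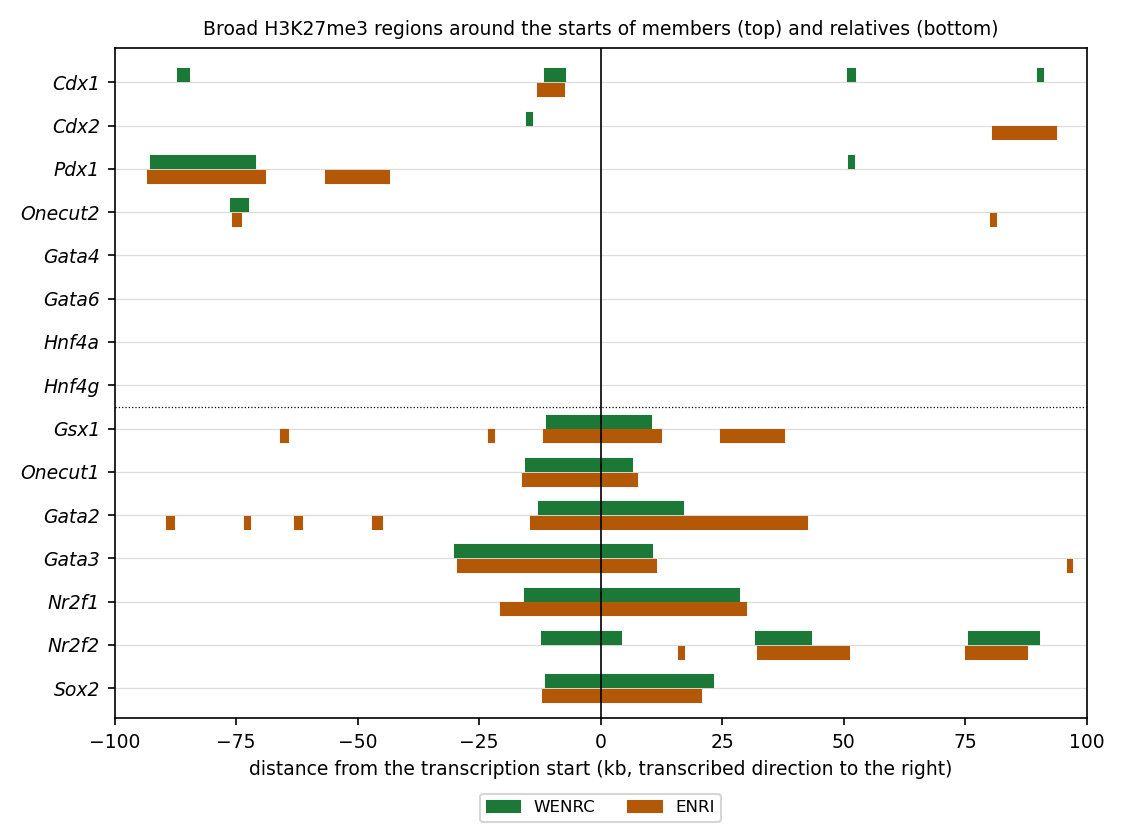
Broad H3K27me3 regions within 100 kb of the start of each of the 8 factors (above the dotted line) and of 7 relatives with a region over the start in WENRC (below it), by distance in kb with the direction of transcription to the right; green is WENRC and orange ENRI, 1 library each. No bar reaches the start of any of the 8 factors, and the broad region over Nr2f2 is listed in WENRC only, although the narrow lists hold one in both media.

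Broad regions did lie at the starts of several paralogues and other endodermal factors. Of 30 related factor genes, 16 had a broad region at the start in WENRC and 14 in ENRI, and these 14 were marked in both media. The regions in both media were 2.904 to 44.017 kb long in WENRC and 3.055 to 56.778 kb in ENRI. Of the 16 marked genes 1 passed the filter on low values, and of the 14 without a broad region 12 did.

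Within the families of the 8 factors, Gata5, another gut GATA gene, had no region and was at 2.20 ± 0.124 RPKM in WENRC and 3.06 ± 0.327 in ENRI (SD, n = 2 each). Gata2 and Gata3, factors of blood and other lineages, were marked in both media. Gata2 had 1 read in all, and Gata3 was at 0.0217 and 0.0260 RPKM. Onecut1 was marked in both media and was at 0.0113 and 0.0183 RPKM. Onecut3 was marked in the broad list of WENRC only but in the narrow lists of both media, and was at 0.361 and 0.251 RPKM. Cdx4 and Gata1, both on the X chromosome, were close to silent (at most 0.0359 RPKM in a library) with no region, so not each silent paralogue was marked.

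Sox2 (stomach and foregut), Nkx2-1 (lung and thyroid) and Ptf1a (pancreas) had 0 reads in all 4 libraries. Each had a broad region within 2 kb of the start in both media. In the shallowest library 0 reads allows up to 0.132 RPKM for Sox2, 0.0653 for Nkx2-1 and 0.177 for Ptf1a. Nr2f2, which encodes COUP-TFII, a nuclear receptor that can compete with HNF4 for its sites, was the marked gene that passed the filter. It was at 1.35 and 1.28 RPKM in WENRC and 0.698 and 0.548 in ENRI. Its log2 change was −0.69 ± 0.13 (SE; limma adjusted p = 0.0565), and the broad region of 16189 bp over its start was listed in WENRC only, while the narrow lists held a region at its start in both media.

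**Figure D4:**
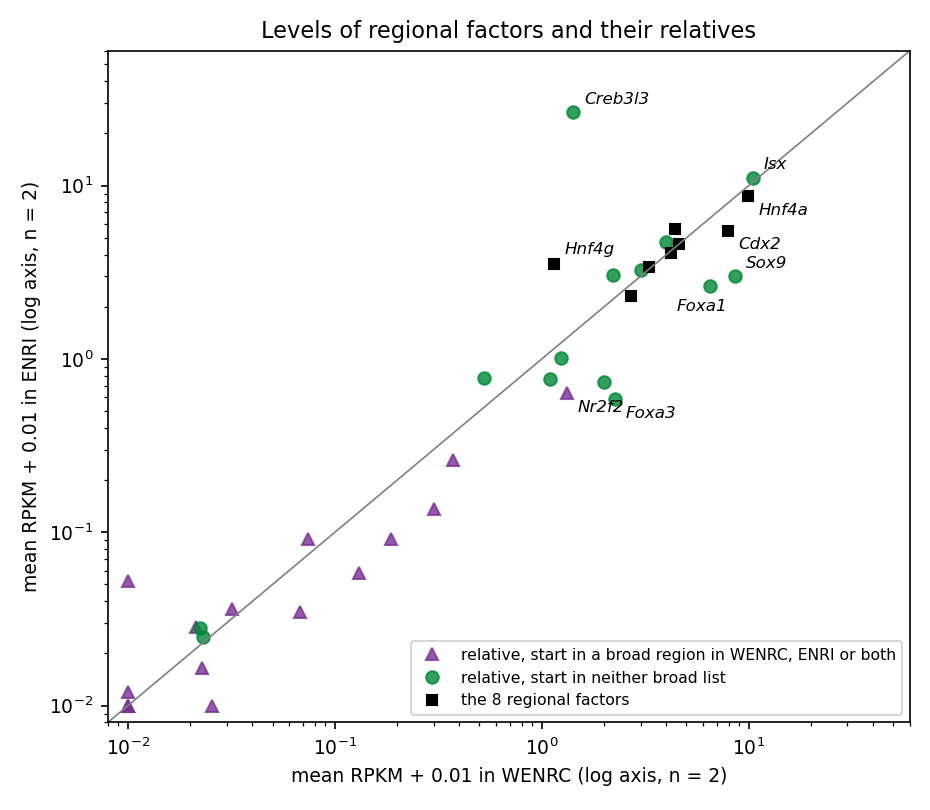
Mean level in ENRI against WENRC (RPKM + 0.01, log axes, n = 2 per medium) for the 8 factors (squares) and 30 related factor genes. Relatives are triangles where a broad H3K27me3 region lies within 2 kb of the start in at least 1 medium and circles where none does. The line marks equal levels. The 8 factors lie among the unmarked relatives, and 15 of 16 triangles lie below the filter of 0.5 RPKM.

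Of the 30 relatives, 13 were tested, 6 with a higher and 7 with a lower level in ENRI, and limma called 0 (0 also at the same threshold with the replicate block; 5 of 13 had an unadjusted p under 0.05, beside 39% of all tested genes). edgeR called 1 and DESeq2 called 5, beside 8.44% and 23.6% of all tested genes. Their median was −0.20, as for all genes. Creb3l3, an intestinal and hepatic factor of lipid metabolism, was at 1.75 and 1.08 RPKM in WENRC and 14.0 and 39.1 in ENRI (log2 change 3.67 ± 0.55 SE, limma adjusted p = 0.0560). Sox9, a factor of crypt progenitors, was at 5.96 and 11.3 RPKM in WENRC and 4.89 and 1.12 in ENRI (−1.56 ± 0.68, adjusted p = 0.165). The forkhead genes Foxa1 and Foxa3 had changes of −1.20 ± 0.37 and −1.30 ± 0.28 (adjusted p = 0.0937 and 0.0620).

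Isx, an intestinal homeobox gene downstream of CDX2 that represses uptake of provitamin A, was at 9.19 to 12.6 RPKM over the 4 libraries (log2 change 0.076 ± 0.28). As for Cdx1, Gata4 and Gata6, its difference was negative in batch 1 and positive in batch 2.

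Of 18 genes for cofactors of these factors, 16 were tested, 8 higher and 8 lower in ENRI, with a median of −0.014. limma called 0, and 2 of 16 had an unadjusted p under 0.05, beside 39% of all tested genes. edgeR called 0 and DESeq2 1, beside 8.44% and 23.6% of all tested genes. Those with the largest differences were Smarca4, the ATPase of the SWI/SNF remodeller (−0.65 ± 0.18 SE), Tcf7l2, the Wnt effector of crypts (0.44 ± 0.21), Ppargc1b, a coactivator of nuclear receptors (0.41 ± 0.25), and Pbx2, a homeodomain partner (−0.40 ± 0.13). Smad4, which works with HNF4A, was at 1.35 ± 0.044 and 1.38 ± 0.00613 RPKM (SD, n = 2 each).

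Textbook target genes of HNF4, CDX2, GATA4 and HNF1 stood higher in ENRI than in WENRC. All 22 tested of 24 had a positive log2 change, with a median of 2.45 beside −0.21 for all tested genes and −0.037 for the 8 factors. Of the 22, 5 passed the filter through ENRI alone, among them Muc2 and Slc15a1. With no filter all 24 were higher and the median was 2.36, beside −0.015 for all genes. The median was 1.93 in batch 1 and 3.14 in batch 2. limma called 1 of the 22, Muc2, beside 0.147% of all tested genes, and 21 had an unadjusted p under 0.05, beside 39%. edgeR called 14, beside 8.44% of all tested genes, and 15 with the replicate block, beside 8.03%. DESeq2 called 22, beside 23.6%. These counts include genes that passed the filter through ENRI alone, as 305 of all 11602 tested genes did. Of the 24, 3 (Vil1, Cdh17 and Lgals4) also stand in the list of epithelial markers, and Fabp1 and Lct in that of duodenal genes.

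Apoa1, the main protein of HDL, was at 3.83 and 2.23 RPKM in WENRC and at 170 and 266 in ENRI. Both ENRI libraries were far above both WENRC libraries, with a log2 change of 5.95 ± 0.42 (SE; limma adjusted p = 0.0507). Apoa4 had 5.36 ± 0.58, Fabp2, which encodes the intestinal fatty acid binding protein, 4.32 ± 0.61, and Apoc3 3.58 ± 0.34, with adjusted p of 0.0556 to 0.0560. Muc2, the goblet cell mucin, rose from 0.147 and 0.106 RPKM to 2.03 and 2.28 RPKM (2.08 ± 0.12, adjusted p = 0.0374). Its adjusted p was 0.0360 in edgeR and 2.19e-39 in DESeq2, while limma with the replicate block, or without either WENRC library, called 0 of all genes.

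Slc15a1, the peptide transporter PEPT1, was the target gene with a broad H3K27me3 region at its start, of 4633 bp and in WENRC only. It was at 0.0907 and 0.0711 RPKM in WENRC and 1.90 and 3.28 in ENRI, a log2 change of 2.37 ± 0.25 (SE; limma adjusted p = 0.0560). No other of the 24 had a broad region at its start in either medium. The narrow lists held a region at the start of Slc15a1 in WENRC only and at that of Muc2 in both media. Lct, the lactase gene of proximal small bowel, stayed below the filter at 0.265 to 0.366 RPKM.

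**Figure D5:**
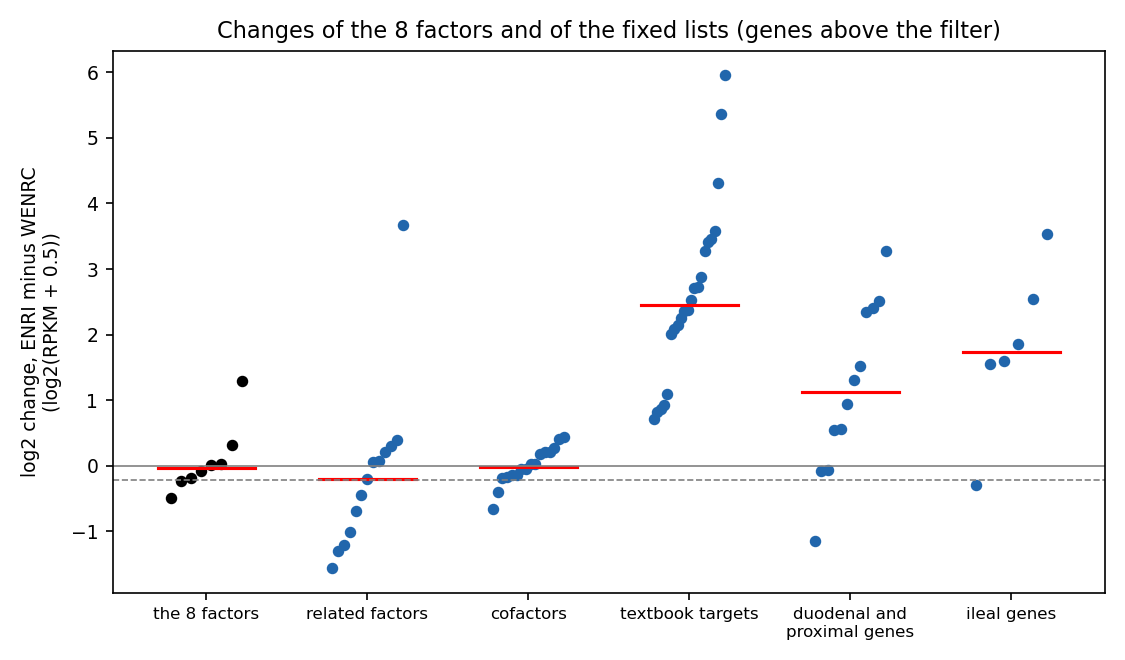
Log2 change of the tested genes, ENRI minus WENRC on the log2(RPKM + 0.5) scale, for the 8 factors and 5 gene lists; each point is a gene, the red line the median of the list, and the dashed line the median of all tested genes at −0.21. The 8 factors centre on −0.037 and the textbook targets on 2.45, with every tested target above 0.

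Genes of individual gut regions were compared with the duodenal label. Of 15 duodenal and proximal genes 12 were tested, 9 of them higher in ENRI, with a median of 1.12. Over all 15, with no filter on low values, 12 were higher and the median was 0.56, beside −0.015 for all 24016 genes. Gip, the gene of an incretin hormone, passed the filter through its ENRI level alone. The largest differences were in Fabp1, the liver-type fatty acid binding protein (3.27 ± 0.64 SE), Cyp2b10, a cytochrome P450 (2.51 ± 0.37), Slc5a1, the sodium-glucose transporter SGLT1 (2.40 ± 0.44), and Adh6a (2.34 ± 0.55). limma called 0 of the 12, and 8 had an unadjusted p under 0.05, beside 39% of all tested genes. edgeR called 4 and DESeq2 9, beside 8.44% and 23.6% of all tested genes. Cybrd1, the duodenal ferric reductase, was at 1.67 ± 0.601 RPKM in WENRC and 0.470 ± 0.138 in ENRI (SD, n = 2 each; −1.14 ± 0.24 SE, limma adjusted p = 0.0623), and a broad region was listed at its start in ENRI only.

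Of 14 ileal genes 6 passed the filter, and 2 of these, Slc51b and Bcl2l15, passed through their ENRI levels alone. With no filter, 11 of the 14 were higher in ENRI, with a median of 0.18 beside −0.015 for all genes. Clec2h (3.54 ± 0.32 SE), Cyp4f14 (2.54 ± 0.55), Slc51b, a subunit of the bile acid exporter (1.86 ± 0.40), and Bcl2l15 (1.60 ± 0.43) had the largest differences of the 6. limma called 0 of these 6, and 5 had an unadjusted p under 0.05, beside 39% of all tested genes. edgeR called 2 and DESeq2 5, beside 8.44% and 23.6% of all tested genes. The ileal genes Fabp6 and Slc10a2, which bind and take up bile acids, stayed below the filter. Their means were 0.0966 and 0.110 RPKM in WENRC and 0.0552 and 0.104 in ENRI. Fgf15, of the same list, passed the filter, at 0.289 and 0.759 RPKM in WENRC and 0.816 and 0 in ENRI (−0.30 ± 0.54 SE).

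Colonic genes were mostly below the filter. Of 16, 15 were in the table and 3 were tested: Slc26a3, the chloride exchanger (2.13 ± 0.45 SE), Mettl7b (1.01 ± 0.20, which passed the filter through ENRI alone) and Muc4 (−0.80 ± 0.12). limma called 0 of them, and 3 had an unadjusted p under 0.05, beside 39% of all tested genes. edgeR called 2 and DESeq2 3, beside 8.44% and 23.6% of all tested genes. Broad regions lay within 2 kb of the starts of 7 of the 15 in WENRC or ENRI, among them the posterior Hox genes Hoxa13, Hoxb13 and Hoxd13 in both media. The means of the 3 Hox genes were at most 0.299 RPKM in either medium.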

How the data were processed

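The members and gene lists were chosen with earlier results of these data known. Per the file headers, the authors counted GRO-seq reads over whole gene bodies of RefSeq transcripts (mm9) with HOMER and deposited a signal of scaled reads, whose 4 columns each sum to the same total, beside edgeR log2 fold changes, p-values and scores (likelihood ratios). A further 4 columns of per-sample values (RPKM) were not used. Submitters' processing notes name FastQC, Bowtie, Bowtie2 and HOMER 4.3. Whole reads were recovered from the scaled signal (100% of low values within 0.1 read). RPKM was recomputed from the deposited scaled reads, the longest of each gene's transcripts (33022 for 24016 symbols) was kept, and log2(RPKM + 0.5) was tested with limma 3.58.1 in R 4.3.3 on genes with 0.5 RPKM in 2 libraries, after tests on simulated data. edgeR 4.0.16 and DESeq2 1.42.0 were run on recovered reads of the same genes.

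H3K27me3 regions were called by the authors per library, against input of the same medium (HOMER, per the file headers, from 31443300 tags in WENRC and 29839015 in ENRI). Broad lists used windows of 1000 bp, narrow lists 500 bp. The fold over input (a ratio), the score (tags in the best window), the p-value and the tag signal of a region are the authors' deposited values. A gene was marked where 1 bp of a region overlapped 2 kb either side of its start.

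Groups come from the titles. Columns carry a medium and a batch number, not a mouse, and the batch number served as the replicate block, since the titles give the same mice in both media. Deviations from the group means of same-numbered libraries correlated at 0.0126 across genes. p-values measure the spread between these libraries only. From each list the 4 genes with the largest change above the filter, those that passed, and for each factor the 3 most similar genes were named. Some genes that this rule names are not reported here. Lgr5, Alpi, Gata1 to Gata5, Onecut1, Onecut3, Cdx4, Isx, Sox2, Nkx2-1, Nr2f2, the Hox genes, Smad4, Slc15a1, Lct, Cybrd1, Fabp6, Slc10a2, Fgf15, Pdgfrb, Urad and Gip were named after their values were seen. The samples of input DNA and of total H3 were not used here.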

Additional observations from a re-analysis of the deposited data

How the results depend on the processing

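Beside 17 called genes (7 higher and 10 lower in ENRI) in limma, a pseudocount of 0.1 RPKM gave 1, no filter 0, a filter of 10 reads 1491 (544 higher, 947 lower) and quantile normalization 929 (507 and 422). The replicate block gave 0, edgeR 979 (650 and 329), edgeR with the replicate block 932 (617 and 315) and DESeq2 2738 (1707 and 1031). Median centring gave 12 (7 and 5). Leaving out each library in turn gave 0 to 5794, the highest without ENRI of batch 1, where the lone library is assumed to vary like the others. Of the 8 factors, 1 was called, Hnf4g, with the filter of 10 reads, quantile normalization, edgeR, edgeR with the replicate block and DESeq2. Leaving out libraries gave 0 to 1 called factors (1 without ENRI of batch 1, at a limma adjusted p of 0.0130), and the replicate block changed no call among the 8. The cause was not tested.

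Signs turned for 5 factors. Gata4 was −0.024 under quantile normalization. Gata6 was 0.065 with median centring, 0.21 in edgeR, 0.15 in edgeR with the replicate block and 0.25 in DESeq2. Cdx1 was 0.029 in edgeR and 0.067 in DESeq2. Hnf4a was 0.050 in edgeR, 0.044 in edgeR with the replicate block and 0.082 in DESeq2. Leaving out 1 library at a time, Cdx1 ran from −0.59 to 0.12, Gata6 from −0.43 to 0.27, Pdx1 from −0.13 to 0.20 and Gata4 from −0.16 to 0.18. Cdx2, Onecut2 and Hnf4g kept their sign in all 15 alternatives, and the count of marked factors stayed at 0 in all 6 alternatives per medium. With 2 libraries per medium and 146 reads at the lowest (Pdx1), small differences could not be resolved, and the mark has 1 library per medium.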

Other observations

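Genes of stomach and pancreas, the neighbouring organs whose factors are PDX1, SOX2 and PTF1A, were mostly below the filter on low values. Of 18 gastric genes 3 were tested. Muc6, the gland mucin of stomach and Brunner's glands, was at 0.968 ± 0.124 RPKM in WENRC and 2.26 ± 0.293 in ENRI (SD, n = 2 each), a log2 change of 0.91 ± 0.15 (SE; limma adjusted p = 0.0560). The pepsinogen gene Pga5 had 0.86 ± 0.23 and the proton pump gene Atp4a −0.70 ± 0.13.

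Of 17 pancreatic genes 4 were tested. Pnlip, the pancreatic lipase gene, was at 0.00473 ± 0.00669 RPKM in WENRC and 0.923 ± 0.349 in ENRI (SD, n = 2 each). A broad H3K27me3 region of 1000 bp was listed at its start in WENRC only, 4.25-fold over input. The score of this region, 34, equalled the tag threshold of the list, and the narrow lists held no region there in either medium. Mnx1, a motor neuron and pancreas homeobox gene, was at 0.631 ± 0.162 RPKM in WENRC and 0.0975 ± 0.0607 in ENRI, with a broad region at its start in ENRI only. Bhlha15 (MIST1), a factor of secretory cells, had a log2 change of −0.58 ± 0.20 (SE) and the elastase gene Cela2a 0.059 ± 0.15. limma called none of these 7 genes at an adjusted p of 0.05. Of the 7, 6 had an unadjusted p under 0.05 in limma, beside 39% of all tested genes. edgeR called 2 and DESeq2 called 5, beside 8.44% and 23.6% of all tested genes. Pga5 and Pnlip passed the filter on low values through ENRI alone, and Atp4a and Mnx1 through WENRC alone. Of all 11602 tested genes, 305 passed through ENRI alone and 901 through WENRC alone. Passing through a single medium favours a difference, so these counts and the shares over all tested genes are not alike. No region was compared with a replicate, since each medium has 1 ChIP library.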
